A study of Homo with 2 samples.

Results

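The HOX genes encode the homeodomain transcription factors that give cells their position along the head-to-tail axis of the embryo. They were taken here as every gene whose symbol is HOX with a cluster letter from A to D and a number. Of 28363 genes in the deposited tables, 24 met that rule: 22 in library 1, 21 in library 2 and 19 in both. RefSeq annotation holds 39 human HOX genes, and the tables used here list 7 of 11 genes of the HOXA cluster, 10 of 10 of HOXB, 4 of 9 of HOXC and 3 of 9 of HOXD.

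The cells came from blastoids, stem cell structures that model the human blastocyst. They were made from KhES1, an established line of human embryonic stem cells. There was 1 group, sampled in 2 libraries. Per the labels, the cells formed aggregates in microwells over 24 h and spent 4 days in hydrogel; the medium held 10 µM Y27632, a ROCK inhibitor, and 10% FBS (fetal bovine serum). Single-cell RNA sequencing with droplet 3' chemistry counted unique molecular identifiers (UMIs). A molecule gives 1 tag near its 3' end whatever its length, so levels of different genes are set side by side in CPM, a gene's UMIs scaled to a common total.

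HOX genes lie in clusters on separate chromosomes. Within a cluster, genes at the 3' end (low numbers) are switched on early and reach furthest toward the head, and genes at the 5' end (high numbers) come on later and mark the trunk and tail. Retinoic acid, WNT and FGF signals and the CDX factors act upstream of HOX genes. TBXT (brachyury) marks the primitive streak and the early mesoderm that forms from it, and CDX2 marks both trophectoderm and the posterior end of the embryo.

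A barcode was kept if it had 1000 or more detected genes and no more than 20% mitochondrial UMIs, which left 937 of 1988 in library 1 and 1519 of 2601 in library 2. The kept cells held 37467640 and 43953088 UMIs, with medians of 35059 and 25116 UMIs per cell. No kept barcode sequence was shared: the libraries had 0 in common after filtering and 1 before. Of the listed markers of trophectoderm or amnion, the summed level was 2259 and 2299 CPM in cells with neither CDX2 nor TBXT, against 148 and 140 CPM for pluripotent epiblast markers.

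HOX transcripts were few and came mostly from the 3' end of the HOXB cluster. All HOX genes together had 2516 UMIs in library 1 and 3342 in library 2, or 67.2 and 76.0 CPM (71.6 ± 6.28 CPM, SD, n = 2). The HOXB cluster gave 86.5% of these UMIs and HOXA 12.2%, while HOXC gave 0.973% and HOXD 0.376%. By position, paralog groups 1 to 3 held 91.9% of the HOX UMIs, groups 4 to 5 held 5.50%, groups 6 to 9 held 1.71% and groups 10 to 13 held 0.905%.

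HOXB2, which patterns hindbrain segments, led all members. It lies on chromosome 17 at 48542655 to 48545109 (RefSeq, GRCh38.p14) and had 1680 UMIs (44.8 CPM) in library 1 and 2200 UMIs (50.1 CPM) in library 2, which was 66.2% of all HOX UMIs. HOXB1 (chromosome 17, 48528526 to 48531011), an early hindbrain gene, had 6.43 and 8.01 CPM. HOXB2 stood above HOXB1 in each library.

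The next genes along the HOXB cluster were lower. HOXB3 had 2.19 and 2.68 CPM. HOXB5 had 1.98 and 2.23 CPM. HOXB4, known for its effect on the growth of blood stem cells, had 1.28 and 1.66 CPM. HOXB3 and HOXB5 overlapped in their ranges, and HOXB4 lay below both in each library. The counting intervals of HOXB4 overlapped those of HOXB5 in each library, but not those of HOXB3. HOXB6 had 0.320 and 0.501 CPM and HOXB7 0.347 and 0.455 CPM, which do not differ beyond their counting intervals. HOXC13, the member at the 5' end of its cluster and a gene of hair and nail, had 20 and 19 UMIs (0.534 and 0.432 CPM). HOXA3, needed for the thymus and parathyroid in the mouse, had 13 and 12 UMIs (0.347 and 0.273 CPM). The other 14 members had 2 to 18 UMIs each over both libraries, 110 in all.

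**Figure D1:**
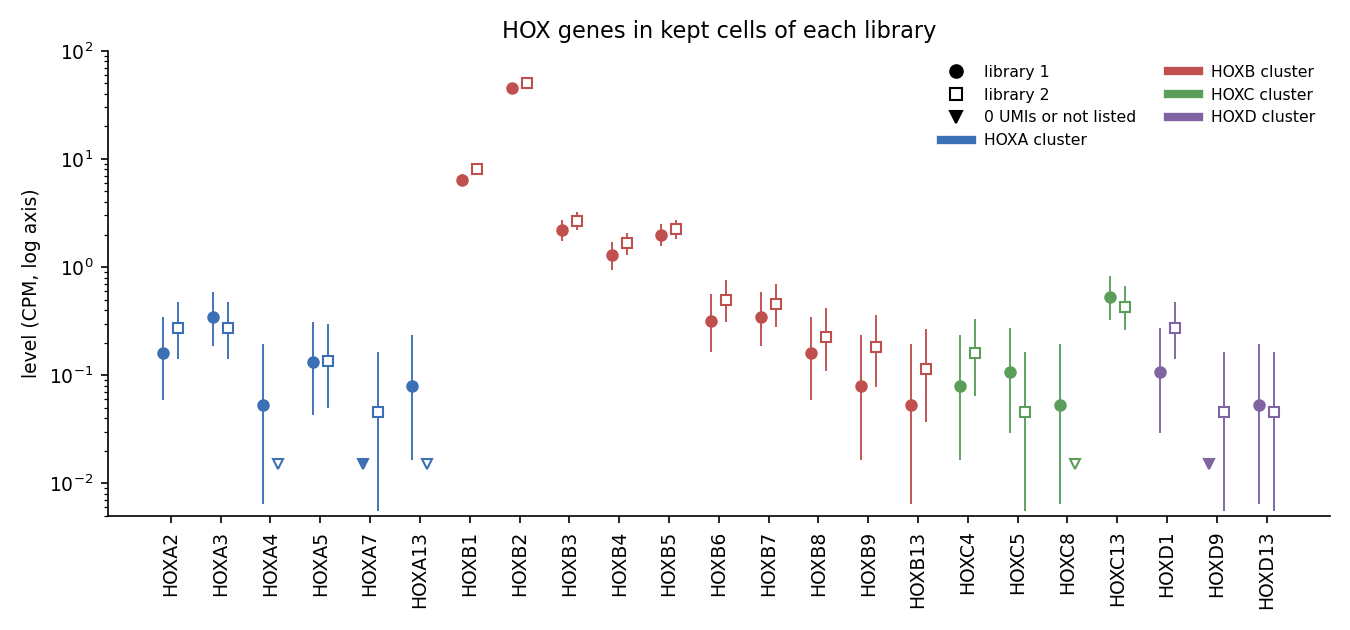
Level of HOX genes (CPM, log axis) in the kept cells of library 1 (filled circles) and library 2 (open squares), coloured by HOX cluster, with exact 95% Poisson intervals that cover counting error only; triangles mark genes with 0 UMIs or not listed in that library. HOXB2, at 44.8 and 50.1 CPM, stands above HOXB1, and HOXB3 to HOXB5 lie above HOXB6 to HOXB13.

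Some of these assignments are uncertain, because the genes share ground. In RefSeq, 7 members overlap another HOX gene and 13 overlap any gene. HOXB4 lies within the span of HOXB3, HOXA4 and HOXA5 overlap HOXA3, and HOXC4 and HOXC5 share 18474 bases. HOXB2 and HOXB3 overlap the antisense RNA HOXB-AS1, by 759 and 2372 bases, and HOXB5 and HOXB6 overlap HOXB-AS3. The sources used here do not give whether the counting used the strand.

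Most cells held a HOX UMI at full depth, and a minority did so at a fixed depth. With each cell thinned to 5000 UMIs, 24.9% of 827 cells in library 1 and 26.9% of 1138 in library 2 had a UMI of any HOX gene; without thinning these shares were 69.6% and 57.9%. HOXB2 was found in 18.6% (95% exact interval 16.0 to 21.4) and 19.2% (17.0 to 21.7) of thinned cells, and in 60.6% and 50.2% of unthinned cells. HOXB1 was found in 2.66% and 3.87% of thinned cells. Thinning left out 110 and 381 cells that were shallower than 5000 UMIs. Cluster 13 was led by the syncytiotrophoblast genes GCM1 and ERVW-1 among others. It had 1 HOX UMI (HOXB2) in its 2 cells of library 1 and 0 in its 22 cells of library 2. At median depths of 141896 and 6888.5 UMIs, HOXB2 was at 3.52 CPM (exact interval 0.0892 to 19.6) and 0 CPM (upper bound 17.3). Both were below the whole-library levels. In barcodes under the gene minimum, HOXB2 was at 49.0 and 33.3 CPM. How far free RNA in the droplets adds to HOX levels was not tested.

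Cells were then grouped by whether CDX2 and TBXT each had a UMI. Both were found in 21 cells of library 1 and 26 of library 2, CDX2 alone in 42 and 49, TBXT alone in 8 and 28, and neither in 866 and 1416. The classes differed in depth: the median was 70654 and 54367 UMIs in cells with both, 49257.5 and 40793 with CDX2 alone, 42489.5 and 58547.5 with TBXT alone, and 34392 and 23696 with neither. They differed in other markers too. The 6 primitive streak and mesoderm markers, TBXT among them, summed to 882 and 727 CPM in cells with both, 6.72 and 9.98 CPM with CDX2 alone, 534 and 566 CPM with TBXT alone, and 4.50 and 7.22 CPM with neither. The 7 epiblast markers summed to 855 and 1136 CPM in cells with both, 283 and 415 CPM with CDX2 alone, 1274 and 1590 CPM with TBXT alone, and 148 and 140 CPM with neither. The 10 trophectoderm or amnion markers summed to 507 and 258 CPM with both, 2317 and 2080 CPM with CDX2 alone, 329 and 436 CPM with TBXT alone, and 2259 and 2299 CPM with neither. The 5 mesenchyme markers summed to 71.6 and 43.4 CPM with both, 384 and 325 CPM with CDX2 alone, 41.5 and 99.4 CPM with TBXT alone, and 445 and 489 CPM with neither. The hypoblast or endoderm markers summed to 201 and 110 CPM with both, 38.1 and 33.0 CPM with CDX2 alone, 102 and 109 CPM with TBXT alone, and 36.8 and 37.2 CPM with neither. Of these SOX17 and FOXA2 were at 0 in library 1 in the classes with both and with TBXT alone. The endothelium and blood markers summed to 133 and 95.01 CPM with both, 15.3 and 19.95 CPM with CDX2 alone, 83.1 and 76.0 CPM with TBXT alone, and 11.8 and 15.3 CPM with neither. Of these PECAM1, CDH5, GATA1 and HBE1 were at 0 in the classes with both and with TBXT alone, which left KDR as the whole sum there. The neural markers summed to 122 and 155 CPM with both, 78.4 and 87.4 CPM with CDX2 alone, 88.6 and 115 CPM with TBXT alone, and 58.5 and 53.7 CPM with neither; of these PAX6 was at 0 in all 4 classes, and SOX1 was too except with neither in library 1. The primordial germ cell markers summed to 43.1 and 76.5 CPM with both, 82.5 and 61.2 CPM with CDX2 alone, 99.7 and 54.6 CPM with TBXT alone, and 49.9 and 40.9 CPM with neither. Hypoblast, endothelial and neural sums were thus higher in cells with both than in cells with neither in each library, and mesenchyme was lower. In cells with both, the endothelial sum was KDR alone and the neural sum was NES and SOX3, so these sums do not show those cell types. Fits within 1 cluster and with thinned classes, given below, bear on depth and on this mix of cells; beyond those, their part in the results was not tested.

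Over all kept cells, those with both CDX2 and TBXT carried less HOXB2 than those with neither, and this direction did not hold within cluster 9, the cluster that held most of them. UMI sums per library and class were tested with edgeR's quasi-likelihood test, with the library as a block and Benjamini-Hochberg adjustment over 13892 genes, of which 6182 (44.5%) were called at an adjusted p under 0.05. Of 24 HOX genes, 4 passed the filter on low counts in this fit; 2 were called higher, 1 was called lower and 1 was not called. The filter asked for about 3.58 CPM in 2 of the 6 sums.

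HOXA3 had 7 and 8 UMIs (4.64 and 5.10 CPM) in cells with both, against 4 and 2 UMIs (0.122 and 0.0533 CPM) in cells with neither. HOXA3 passed the count filter only through the class where it is high, so these levels, from 15 UMIs in cells with both, are a description and nothing is read from its call. HOXB2 had 33.1 and 17.9 CPM in cells with both, against 46.3 and 54.0 CPM in cells with neither, and was lower by a log2 fold change of -1.04 (SE 0.25, edgeR adjusted p = 0.0129). Its log2 fold change was -1.65 without library 1 and -0.53 without library 2. It was -0.61 with at least 2 UMIs for detection (edgeR adjusted p = 0.139). With thinned classes and no minimum of cells it was 0.25 (SE 0.29, edgeR adjusted p = 0.555), from 4 and 7 cells with both. Within cluster 9 it was 1.26 (SE 0.51, edgeR adjusted p = 0.280). HOXB1 had 5.30 and 10.8 CPM in cells with both, against 6.41 and 8.17 CPM in cells with neither; the ranges overlapped and it was not called (log2 fold change 0.08, SE 0.32, edgeR adjusted p = 0.855).

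**Figure D2:**
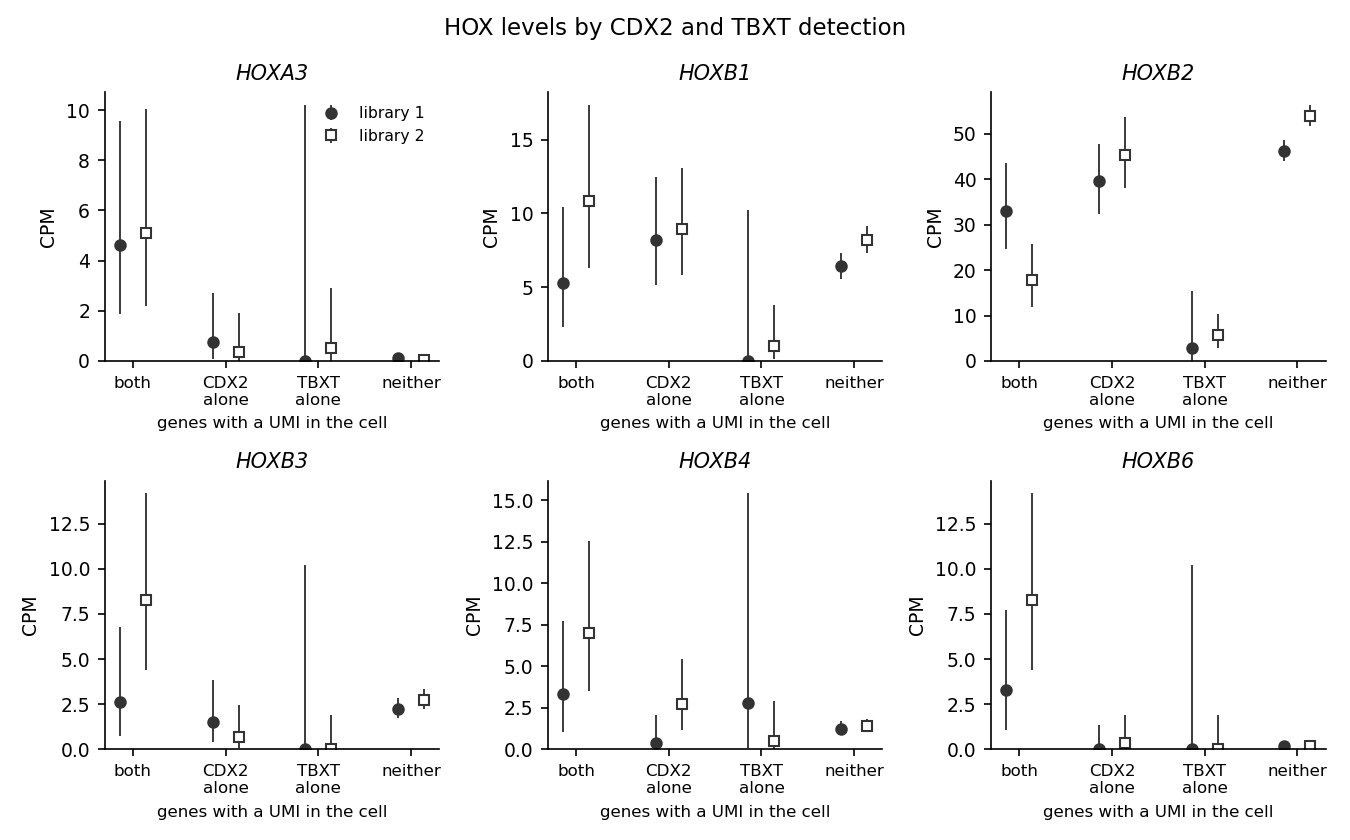
Level (CPM) of HOXA3, HOXB1, HOXB2, HOXB3, HOXB4 and HOXB6 in cells with UMIs of both CDX2 and TBXT, of CDX2 alone, of TBXT alone and of neither, in library 1 (filled circles) and library 2 (open squares), with exact 95% Poisson intervals for counting error. HOXA3 stands at 4.64 and 5.10 CPM in cells with both and under 1 CPM in the other classes, and HOXB2 is lowest in cells with TBXT alone.

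The other members were too sparse for that fit, and most of their UMIs in the cells with both came from few cells. HOXB6 had 5 and 13 UMIs (3.31 and 8.29 CPM) in cells with both, against 7 and 8 UMIs (0.213 and 0.213 CPM) in cells with neither. The 18 HOXB6 UMIs of the cells with both were 52.9% of all HOXB6 UMIs, although those cells held 3.78% of all UMIs. HOXB4 had 3.31 and 7.01 CPM in cells with both, against 1.25 and 1.41 CPM in cells with neither. HOXB6 to HOXB9 together had 4.64 and 15.9 CPM in cells with both, against 0.729 and 0.879 CPM in cells with neither. In library 2, 8 of the 13 HOXB6 UMIs were in 1 cell, and another cell, with 10 HOX genes detected, held 54 of the 202 HOX UMIs of its class, including 10 of 13 for HOXB3 and 7 of 11 for HOXB4. Without that cell HOXB4 in library 2 was 2.65 CPM and HOXB3 1.99 CPM. HOXC13 had 0 UMIs in the cells with both (exact upper bounds 2.44 and 2.35 CPM), against 17 and 16 UMIs (0.516 and 0.426 CPM) in cells with neither, and this depth cannot show a difference.

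Without the filter on low counts, 19 HOX genes entered the fit and 28.4% of 25554 genes were called. In that fit 8 HOX genes were called higher and 1 lower, against 3109 higher and 4150 lower of the 25554 genes. HOXA2, HOXA5, HOXB4, HOXB6, HOXB8 and HOXD1 joined those called higher, and HOXB2 was the lower one. These added genes had 7 to 18 UMIs in the cells with both, and nothing is read from their calls. HOXA5, HOXB8 and HOXD1 each had 1 UMI there in library 1 and 6 in library 2. In library 2, 5 of the 6 HOXD1 UMIs were in 1 cell, and so were 4 of the 6 HOXB8 UMIs.

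**Figure D3:**
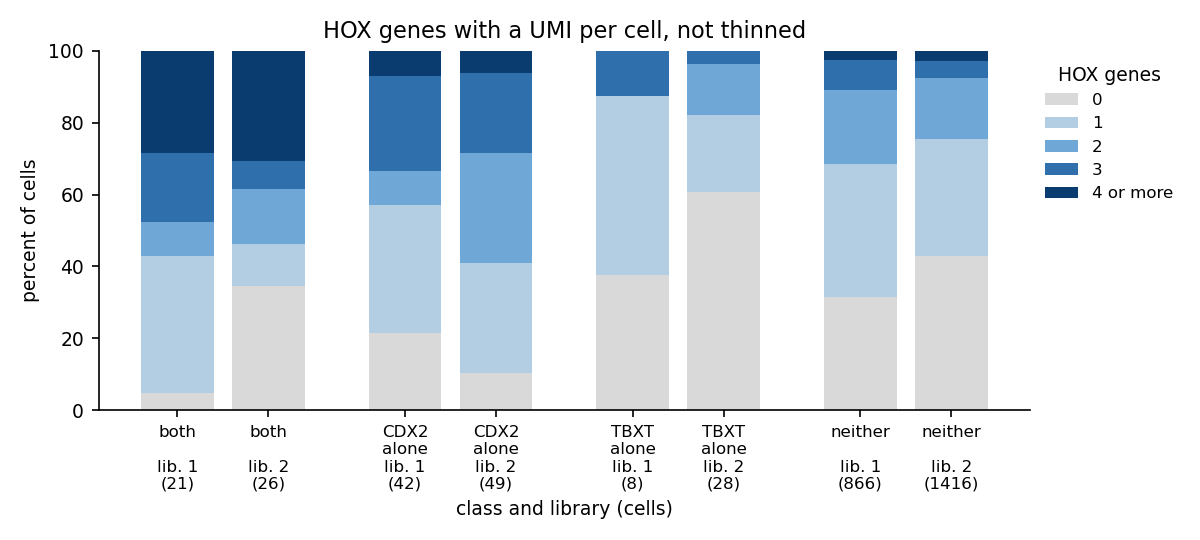
Percent of cells with a UMI of 0, 1, 2, 3 or 4 and more HOX genes (unthinned), by detection class and library, with the number of cells under each bar. Cells with 4 or more HOX genes make up 28.6% and 30.8% of the cells with both CDX2 and TBXT and 2.66% and 2.75% of those with neither, whose cells are shallower.

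At full depth, 4 or more HOX genes were detected in 28.6% and 30.8% of cells with both, in 7.14% and 6.12% with CDX2 alone, in 0% and 0% with TBXT alone, and in 2.66% and 2.75% with neither. With cells thinned to 5000 UMIs, any HOX gene was detected in 19.0% and 38.5% of cells with both, against 24.9% and 27.2% of cells with neither, so the direction differed between the libraries. At 5000 UMIs per cell, HOXB2 was detected in 4.76% of 21 and 0% of 26 cells with both, against 19.4% of 759 and 20.2% of 1038 cells with neither. For 0 of 26 cells in library 2 the exact upper bound is 13.2%.

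Nearly all cells with both genes lay in cluster 9, the cluster highest in POU5F1, the pluripotency factor: 20 of 21 in library 1 and 26 of 26 in library 2. Clusters were made without HOX genes, CDX2 and TBXT, and comparing them is a description with no test. The classes were also fitted within cluster 9. This fit was added after the data had been seen; it had 36 and 44 cells with neither gene, and it called 3.37% of 11705 genes and 0 of 3 HOX genes. Without adjustment, 2 of these 3 genes were under 0.05, HOXB2 among them. HOXB2 was not lower within the cluster. It had 33.3 and 17.9 CPM in cells with both, against 6.75 and 15.5 CPM in cells with neither (log2 fold change 1.26, SE 0.51, edgeR adjusted p = 0.280). Outside the cluster HOXB2 had 48.5 and 55.3 CPM in cells with neither. HOXB1 had 5.67 and 10.8 CPM in cells with both within the cluster, against 0.563 and 7.33 CPM in cells with neither there (log2 fold change 1.29, SE 0.69, edgeR adjusted p = 0.402). HOXA3 had 7 and 8 UMIs in cells with both and 0 and 0 in cells with neither within the cluster, and it did not enter that fit.

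**Figure D4:**
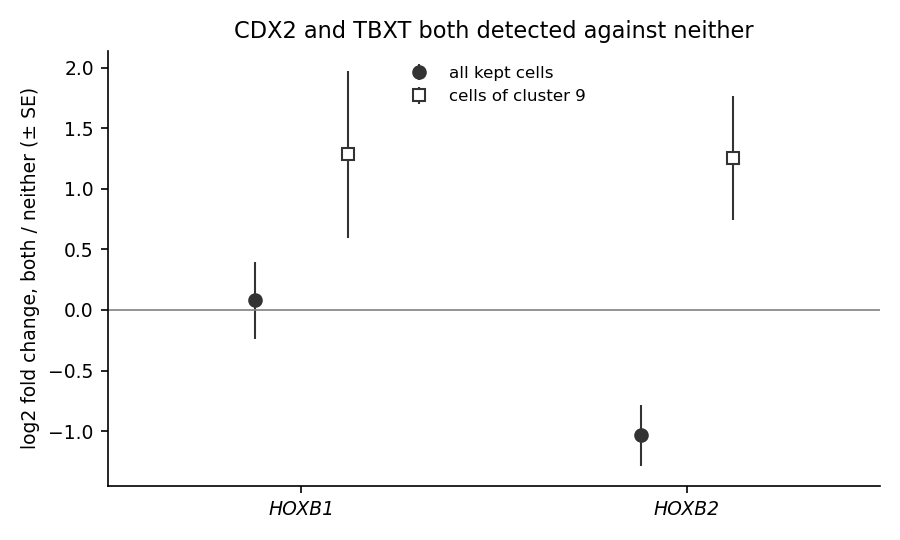
Log2 fold change with its SE, for cells with both CDX2 and TBXT over cells with neither, from edgeR, over all kept cells (circles) and within cluster 9 (squares). HOXB1 is at 0.08 and 1.29, and HOXB2 is at -1.04 and 1.26.

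Cells with CDX2 alone were also set against cells with neither, and too few HOX genes were tested to read a lack of change. HOXB1 had 8.21 and 8.94 CPM in cells with CDX2 alone, against 6.41 and 8.17 CPM in cells with neither, and HOXB2 had 39.6 and 45.4 CPM, against 46.3 and 54.0 CPM. Over all genes 1.62% were called in this comparison, and 0 of the 4 HOX genes tested were called by edgeR. DESeq2's Wald test also called 0 of the 4, and edgeR called 0 of 19 without the count filter, where 4.66% of genes were called. Without adjustment, edgeR gave 0 of the 4 under 0.05, DESeq2's Wald test gave 1 (HOXA3), and edgeR without the count filter gave 1 of 19 (HOXD1). The log2 fold changes were 2.53 (SE 1.30) for HOXA3, 0.24 (SE 0.27) for HOXB1 and -0.23 (SE 0.20) for HOXB2. HOXA3 passed the count filter only through the cells with both. Outside cluster 9, where 31 of 42 and 41 of 49 of these cells lay, 0.516% of genes were called and HOX genes again gave 0 calls.

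Classes made after thinning each cell to 5000 UMIs gave another result for CDX2 alone. That fit called 3 of 9 HOX genes and 8.94% of all genes. HOXB6 and HOXB8 were among the 3. HOXB6 had 7 and 8 UMIs and HOXB8 4 and 4 in all unthinned cells with neither, and nothing is read from their calls. That class held 11 cells in each library, and 5 of the 11 in each had a TBXT UMI at full depth. By CDX2 UMIs in unthinned cells, HOXB2 had 45.8 and 51.7 CPM in cells with 0, 33.0 and 43.1 CPM in cells with 1, and 42.0 and 27.1 CPM in cells with 2 or more. HOXB2 was highest with 0 CDX2 UMIs in both libraries, and the order of the other steps differed between the libraries. The counting interval with 0 overlapped that with 2 or more in library 1 (43.5 to 48.2 against 33.5 to 52.1 CPM). In library 2 it overlapped that with 1 (49.5 to 54.0 against 35.2 to 52.2 CPM). No order of the steps is read from these levels. Of the cells with 2 or more, 16 of 25 in library 1 and 16 of 26 in library 2 also had TBXT, against 5 of 38 and 10 of 49 of the cells with 1.

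HOXB2 and HOXB1 were lower in cells with TBXT alone. HOXB2 had 1 and 11 UMIs (2.77 and 5.72 CPM) in cells with TBXT alone, against 46.3 and 54.0 CPM in cells with neither. HOXB1 had 0 and 2 UMIs (0 and 1.04 CPM), against 6.41 and 8.17 CPM. With only 8 cells in library 1, this class fell under the minimum of 10 cells set for the fit, so it was tested in a fit with no minimum, which was added after the data had been seen. That fit called 26.1% of 13808 genes and 2 of 4 HOX genes. HOXB2 was lower by a log2 fold change of -3.38 (SE 0.41, edgeR adjusted p = 3.12e-04) and HOXB1 by -3.29 (SE 0.72, edgeR adjusted p = 0.00780). HOXA3 was not called (2.20, SE 2.04, edgeR adjusted p = 0.472). Without library 2 the HOXB1 log2 fold change was -8.92, a value that depends on the prior count because HOXB1 had 0 UMIs in the cells of library 1. With classes from thinned cells HOXB2 was still called (-1.84, edgeR adjusted p = 0.00434), and HOXB1 was not (-0.66, edgeR adjusted p = 0.587); 5 of 6 and 6 of 13 cells of that class had both CDX2 and TBXT at full depth. With no filter on barcodes this class had 14 and 28 cells and passed the minimum. That fit called 26.1% of 13824 genes and 3 of 5 HOX genes. HOXB2 was at -3.37 (edgeR adjusted p = 3.06e-04) and HOXB1 at -3.29 (edgeR adjusted p = 0.00784). HOXB3 was also called, but it had 0 UMIs in the kept cells of this class, so nothing is read from its call. Summed over all HOX genes, kept cells with TBXT alone had 7 and 30 UMIs (19.4 and 15.6 CPM), against 66.0 and 77.1 CPM in cells with neither. As 7 of the 8 and 26 of the 28 cells lay in cluster 9, this contrast sets that cluster against others; within it, HOXB2 had 3.14 and 1.66 CPM in cells with TBXT alone, against 6.75 and 15.5 CPM in cells with neither, with no test.

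Set directly against TBXT alone over all kept cells, cells with CDX2 alone had more HOXB2 and HOXB1. HOXB2 had 39.6 and 45.4 CPM in cells with CDX2 alone, against 2.77 and 5.72 CPM in cells with TBXT alone (log2 fold change 3.15, SE 0.43, edgeR adjusted p = 0.00159). HOXB1 had 8.21 and 8.94 CPM, against 0 and 1.04 CPM (log2 fold change 3.53, SE 0.74, edgeR adjusted p = 0.0109). In this comparison 15.8% of genes were called. The 2 classes lay mostly in different clusters. Cluster 9 held 7 of 8 and 26 of 28 cells with TBXT alone, but 11 of 42 and 8 of 49 with CDX2 alone. Within it, the HOXB genes together had 5.79 and 26.8 CPM with CDX2 alone, against 9.43 and 3.31 CPM with TBXT alone. The direction of this sum differed between the libraries, with no test. HOXB2 itself was higher there with CDX2 alone in both libraries, on few UMIs and with no test. All HOX genes had 15 and 42 UMIs there with CDX2 alone, of which 11 and 24 were not HOXB2. With TBXT alone they had 6 and 20 UMIs, of which 5 and 17 were not HOXB2. With classes from thinned cells 0 of 3 HOX genes were called, against 3.06% of all genes. The log2 fold changes were 1.74 for HOXB2 (edgeR unadjusted p = 0.00195, adjusted p = 0.0566) and 1.64 for HOXB1 (edgeR adjusted p = 0.409). The comparisons of the other classes with neither share the cells with neither, so their values are not independent of each other.

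Among the clusters of cells, cluster 9 had less HOXB2 than the other 6 of usable size. HOXB2 had 15.2 and 12.4 CPM there, against a range of 40.6 to 94.2 CPM over both libraries in the other 6 clusters that had 20 or more cells per library. HOXB1 had 2.14 and 6.18 CPM in cluster 9. It had 9.48 and 10.98 CPM in cluster 2, the largest, led by PCDH9, RELN and STMN2, 3.24 and 4.26 CPM in cluster 3, led by the mitosis genes TOP2A and MKI67, and 2.48 and 0.874 CPM in cluster 5, led by FYB1, APOA2 and CCKBR. Clusters 11 and 12 were shallow, with medians of 3184 to 4206 UMIs, and their intervals are wide. All 18 HOXA2 UMIs and all 16 HOXD1 UMIs were in cluster 9, which held 11.9% of all UMIs; of these, 11 HOXA2 UMIs and 7 HOXD1 UMIs were in cells with both CDX2 and TBXT. HOXB6 had 18 of its 34 UMIs in cluster 9.

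**Figure D5:**
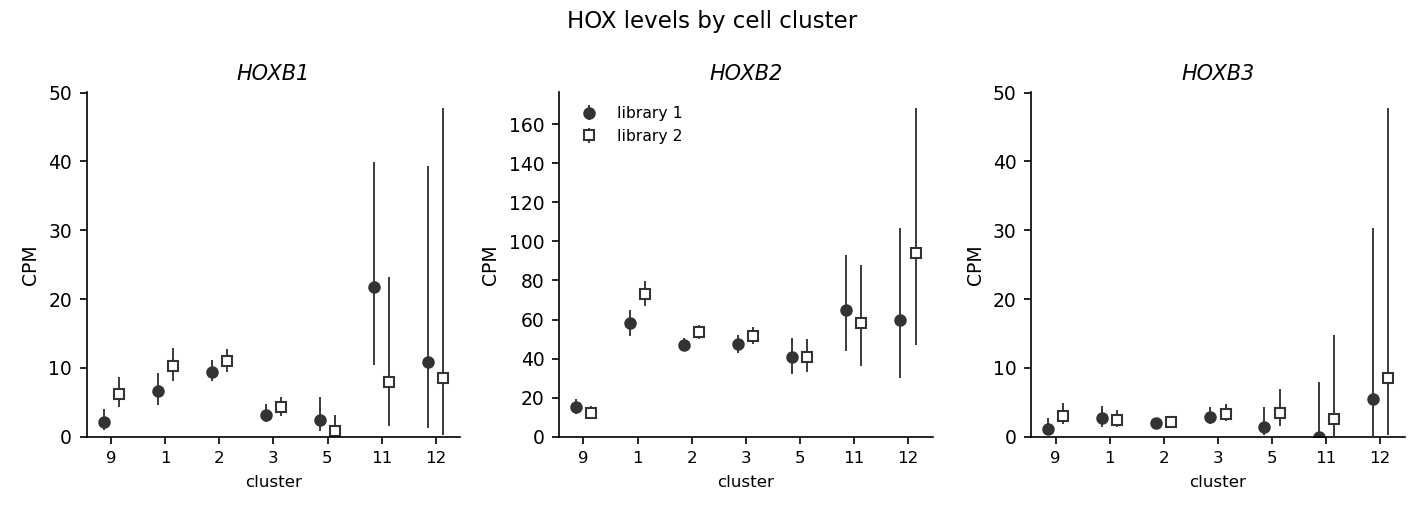
Level (CPM) of HOXB1, HOXB2 and HOXB3 in cluster 9 (highest in POU5F1) and in the other clusters that had 20 or more cells per library, in library 1 (filled circles) and library 2 (open squares), with exact 95% Poisson intervals for counting error. HOXB2 is 15.2 and 12.4 CPM in cluster 9 and at least 40.6 CPM in the others, and HOXB1 is 2.14 and 6.18 CPM in cluster 9.

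Noncoding RNAs of the HOX clusters differed between cells with both genes and cells with neither, some in each direction. Of 21 listed, 7 were in both tables and 3 were tested: 2 were called higher and 1 lower, against 44.5% of all genes called. HOTAIRM1, an antisense RNA of the HOXA cluster, had 99.4 and 63.1 CPM in cells with both, against 21.6 and 26.0 CPM in cells with neither (log2 fold change 1.70, SE 0.22, edgeR adjusted p = 7.52e-04). HOXB-AS3 had 3.98 and 7.65 CPM, against 0.516 and 0.373 CPM; it passed the count filter only through the cells with both, so nothing is read from its call. HOXB-AS1 had 10.6 and 11.5 CPM, against 30.3 and 27.3 CPM, and was lower by -1.44 (SE 0.21, edgeR adjusted p = 0.00122). Its direction turned to 0.36 within cluster 9 (edgeR adjusted p = 0.780) and to 0.086 with thinned classes and no minimum of cells (edgeR adjusted p = 0.912). HOXB-AS1 overlaps HOXB2, which was also lower, and how far the pair shares reads was not tested.

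The TALE proteins, the PBX, MEIS and PKNOX factors that bind DNA together with HOX proteins, changed in both directions between cells with both genes and cells with neither. Of 8 tested, 2 were higher and 4 lower, against 44.5% called over all genes (median log2 fold change -0.77, against -0.02 over all genes tested). MEIS3 had 59.0 and 52.3 CPM in cells with both, against 4.13 and 4.21 CPM in cells with neither (log2 fold change 3.68, edgeR adjusted p = 6.72e-05). MEIS1 had 112 and 21.7 CPM, against 691 and 705 CPM (-3.55, edgeR adjusted p = 7.32e-04). MEIS2 was lower by -1.91. With CDX2 alone, 0 of 8 were called.

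Genes of retinoic acid handling, the signal that opens the 3' end of the clusters, also split: of 14 tested, 5 were higher and 4 lower in cells with both than in cells with neither, against 44.5% called over all genes (median log2 fold change 0.07). CYP26A1, which breaks retinoic acid down, had 30.5 and 52.3 CPM in cells with both, against 0.790 and 1.84 CPM in cells with neither, a level under the filter's, so nothing is read from its call. RARB, a retinoic acid receptor, had 13.9 and 4.46 CPM, against 122 and 124 CPM (-3.82, edgeR adjusted p = 6.71e-05). CRABP1, which binds retinoic acid, was higher by 2.52. With CDX2 alone, CRABP1 was the 1 of 14 called, higher by 2.15 (edgeR adjusted p = 0.0112).

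Most of the listed factors known to act upstream of HOX genes at the posterior end were high in cells with both, and many of them mark the primitive streak, as TBXT does, whose detection defines that class. Of 21 tested, 20 were called higher and 0 lower, against 22.3% of all genes called higher, but 16 of the 20 did not reach the filter's level in cells with neither and nothing is read from their calls. Of the 5 that did reach it, 4 were called higher. LEF1, a factor of the WNT pathway, had 196 and 176 CPM in cells with both, against 13.3 and 12.9 CPM in cells with neither. WNT5A, a WNT ligand, had 141 and 82.9 CPM, against 8.78 and 7.06 CPM. The next 4 are among the 16. MSGN1, a factor of presomitic mesoderm, had 150 and 127 CPM in cells with both, against 0.122 and 0.0533 CPM in cells with neither. EVX1, at the 5' end of the HOXA cluster, had 27.2 and 33.2 CPM, against 0.0304 and 0.0533 CPM. The WNT ligand WNT8A had 113 and 72.1 CPM, against 0.0911 and 0.320 CPM, and MESP1 had 227 and 67.0 CPM, against 0.395 and 0.346 CPM. With CDX2 alone, 5 of 21 were called higher, against 1.29% of all genes; 4 of the 5 did not reach the filter's level in cells with neither. LEF1, which did reach it, had 32.8 and 33.0 CPM with CDX2 alone, against 13.3 and 12.9 CPM with neither (log2 fold change 1.34, edgeR adjusted p = 0.00713). NKX1-2, which did not, had 22.8 and 25.1 CPM with CDX2 alone, against 1.91 and 1.41 CPM with neither.

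Of other homeobox genes tested, 4 of 5 were called higher in cells with both, against 22.3% of all genes. EVX1, CDX1 and GBX2 did not reach the filter's level in cells with neither. DLX5 did, and was higher by 1.06 in cells with both and by 1.47 with CDX2 alone. Of 20 Polycomb and MLL genes tested, the repressors and activators that keep HOX clusters off or on, 6 were higher and 3 lower in cells with both (median log2 fold change 0.06), a share close to the 44.5% of all genes called, and 0 were called with CDX2 alone, against 1.62% of all genes. EZH1 was lower by -1.11, KDM6B by -0.74, WDR5 higher by 0.71 and PCGF2 by 0.58.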

How the data were processed

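Each library's file holds raw UMI counts per gene and barcode, deposited by the authors. Per the submitters' processing notes they used Cell Ranger 9.0.0 and GRCh38. Other steps are not given in the sources used here. Per the labels the libraries are 2 samples of 1 group; nothing says that they came from separate cultures, so p-values measure only the spread between these libraries.

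From the counts, 2456 barcodes were kept by the limits on genes (1000) and on mitochondrial UMIs (20%). CPM used all UMIs of the cells concerned. Intervals are 95% exact Poisson or Clopper-Pearson intervals and cover counting error only. Shares of cells were also given after thinning to 5000 UMIs. Clusters came from scanpy 1.11.5 (Python 3.11.15, 2000 variable genes without HOX genes, CDX2, TBXT, mitochondrial and ribosomal genes, 30 principal components, 15 neighbours, Leiden resolution 0.5). Scrublet called 4 and 3 doublets (0.427% and 0.197% of kept cells), too few to count as a working call; they were kept.

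UMIs were summed per library and CDX2/TBXT class and tested with edgeR 4.0.16 (R 4.3.3; TMM, filterByExpr, quasi-likelihood, Benjamini-Hochberg over all genes, threshold 0.05) for genes in both tables, without CDX2 and TBXT. The library was a block, since each library holds every class. A class needed 10 cells in each library, which left 6 sums of 3 classes and 2 residual degrees of freedom; cells with TBXT alone were tested in an added fit with no minimum. SE is the absolute log2 fold change divided by the root of F. Alternatives included DESeq2 1.42.0. Tested on simulated data for the comparison of both with neither (25554 genes simulated, 13494 tested), the fit recovered 61.8% of 2-fold and 92.1% of 4-fold changes, with 4 false calls. The simulation gave all genes the same dispersion, no library effect, and equal mean levels in every class apart from a small set of changed genes. The real comparison called 44.5% of genes, so these rates may not hold there.

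HOX genes with at least 20 UMIs over both libraries are named with values, and up to 4 called genes of each other list; other HOX genes named were chosen after their values were seen. Some genes that this rule or the counts include are not reported here by name. The members and lists were chosen with earlier results of these data known. Gene positions and overlaps are from RefSeq on GRCh38.p14, where all 24 members matched by symbol.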

Additional observations from a re-analysis of the deposited data

Results flagged for a closer look

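HOXB2 UMIs were also present in the barcodes that the filters left out, above the level that a count of 3 would give. Barcodes under the gene minimum held HOXB2 at 49.0 CPM in library 1 (29 of 591906 UMIs, exact interval 32.8 to 70.4, floor 5.07 CPM) and at 33.3 CPM in library 2 (23 of 689837 UMIs, 21.1 to 50.03, floor 4.35 CPM). Barcodes over the mitochondrial limit held it at 13.2 CPM in library 1 (8 of 605929 UMIs, 5.70 to 26.0, floor 4.95 CPM) and at 14.1 CPM in library 2 (8 of 565833 UMIs, 6.10 to 27.9, floor 5.30 CPM). The kept cells had 44.8 and 50.1 CPM.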

How the results depend on the processing

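For both CDX2 and TBXT against neither, 6182 genes (44.5%) and 3 of 4 HOX genes tested were called. With at least 2 UMIs for detection, 4017 genes (21.7%) and 5 of 10 HOX genes were called. With thinned classes and no minimum of cells, 2609 genes (28.9%) and 1 of 3 HOX genes were called. Within cluster 9 they were 394 genes (3.37%) and 0 of 3 HOX genes. With no filter on low counts, 9 of 19 HOX genes were called, against 28.4% of all genes. The HOX genes tested changed with the setting, so these counts are not read against each other. For CDX2 alone against neither, 225 genes were called. The count was 1192 with no filter on low counts, 75 with no barcode filter, 1634 with thinned classes and 85 with no minimum. It was 685 with thinned classes and no minimum, and 92 without cluster 9. Of 4 HOX genes tested, 0 were called. With thinned classes 3 of 9 HOX genes were called, against 8.94% of all genes. With thinned classes and no minimum 1 of 3 was called, against 7.58% of all genes. For CDX2 alone against TBXT alone, 2185 genes (15.8%) and 2 of 4 HOX genes were called. With thinned classes they were 276 genes (3.06%) and 0 of 3 HOX genes. HOXB2 in cells with both against neither was 1.26 within cluster 9 (SE 0.51, edgeR adjusted p = 0.280). It was 0.25 with thinned classes and no minimum (SE 0.29, edgeR adjusted p = 0.555), from 4 and 7 cells with both. Neither of these was called. It was -0.61 (edgeR adjusted p = 0.139) with at least 2 UMIs for detection. HOXB1 in the same comparison was -0.015 with no filter on low counts and HOXB2 with CDX2 alone was 0.10 without cluster 9. The share of cells with a HOX UMI was 12.7% at 2000 UMIs, 44.5% at 10000 and 63.8% unthinned, against 25.9% at 5000. Apart from the thinning depths and the classes of thinned cells described above, the cause of these shifts was not tested. Leaving out 1 library gave 67.2 to 76.0 CPM for all HOX genes and 24.9% to 26.9% for detection. With no replicate block for the library, 6503 genes were called for both and 218 for CDX2 alone, and no HOX call changed. These fits were not run for lack of cells under the minimum: both with thinned classes, CDX2 alone at 2 UMIs, and TBXT alone among the kept cells. Depth limits the members under 20 UMIs, which mostly failed the count filter.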
